A study of Mus musculus with 60 samples.

Results

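Knockout (KO) of Glo1 combined with a diet lacking vitamin B6 (VB6) was set against the wild-type (WT) state on a normal diet in the mouse prefrontal cortex. The comparison used 10 of the 60 libraries of the series: 5 from KO mice fed 5 µg of VB6 per 100 g of food, called KO lacking here, and 5 from WT mice fed 1.4 mg per 100 g, called WT normal. Each diet ran between 8 and 12 weeks of age, and each mouse gave 1 library per region. The 10 other prefrontal libraries, from WT mice on the lacking diet and KO mice on the normal diet, entered the fit but not the comparison. How the Glo1 allele was made, the strain and the sex of the mice are not given in the sources used here. Both groups differ in genotype and in diet, and by the labels every KO library was in batch 1 and every WT library in batch 2. Genotype and batch therefore cannot be told apart, and no comparison of KO with WT within a batch is possible.

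Glo1 encodes glyoxalase 1, the first enzyme of the glutathione-dependent pathway that clears methylglyoxal, a reactive dicarbonyl formed as a by-product of glycolysis. Hagh (glyoxalase 2) completes that pathway, and aldo-keto reductases and aldehyde dehydrogenases handle dicarbonyls by other routes. VB6 in its phosphate form is the cofactor of transaminases and decarboxylases, among them the enzymes that make GABA and the monoamines, and the pyridoxamine form can trap dicarbonyls.

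Library totals were between 9824338 and 13728637 counts in the KO lacking group and between 9053720 and 11367155 in the WT normal group. At these depths 3 counts, taken as the floor of detection, stood for 0.219 to 0.331 CPM (counts scaled to library size), which covers counting error only. The VB6 level of the mice was between 2.25 and 5.63 ng/µl in KO lacking mice and between 58.25 and 77.48 ng/µl in WT normal mice (difference in means -60.5 ng/µl, two-sided exact permutation p 0.00794, the smallest that 5 against 5 allows, adjusted p 0.0317 over 4 sample tests). RNA integrity numbers (RIN) were 8.54 ± 0.439 and 8.26 ± 0.365 (SD, n = 5 each, exact p 0.325, adjusted p 0.325). The KO lacking library of mouse 339 stood apart: 77 genes lay more than 1 log2 unit from the mean of its group, against 4 to 20 in the other KO lacking libraries. In the WT lacking group, which shares the fit, the library of mouse 241 had 91 such genes. Of the defining markers of cortical excitatory neurons, WT normal libraries held Neurod6 at 189 RPKM (SD 6.85), Slc17a7 at 106 RPKM (SD 15.1) and Tbr1 at 50.9 RPKM (SD 4.85), where RPKM stands for reads scaled by gene length and library size. Of the striatal markers Drd2 was at 0.303 RPKM (SD 0.069) and Adora2a at 0.263 RPKM (SD 0.123), of the choroid plexus markers Ttr was at 0.828 RPKM (SD 0.639), while Tmem212 was at 0 in all 10 libraries. The 13 mitochondrially encoded protein genes are listed at 0 counts in all libraries and were not analysed here.

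Glo1 (chr17:30592861-30612659, minus strand, mm10) checks the labels. It stood at 0.0776, 0.69, 0.453, 0.171 and 0.658 CPM in the KO lacking libraries. It was 42.3, 42.1, 35.2, 36.0 and 44.5 CPM in the WT normal libraries, where libraries are given here and throughout in the order of mice 242, 244, 325, 339 and 452 for KO lacking and 272, 273, 283, 286 and 317 for WT normal. All KO lacking libraries held fewer than 10 counts (1, 7, 5, 2 and 9) and the WT normal libraries held 379, 435, 360, 362 and 493 counts. The fall was 96.4-fold (log2 fold change -6.59, SE 0.24, edgeR adjusted p 6.22e-18), and 3.10 percent of the 75-base stretches of its transcripts also occur in other genes.

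Of 13223 genes tested, 37 passed a Benjamini-Hochberg (BH) adjusted p of 0.05 in edgeR's quasi-likelihood test, 0.28 percent of all genes. The genes that fell numbered 30 (0.227 percent) and those that rose 7 (0.0529 percent). In 34 of the 37 the levels of the KO lacking and WT normal libraries did not overlap, a state that 2.87 percent of all tested genes were in. An unadjusted p under 0.05 was reached by 1713 genes (13 percent), 709 of them higher (5.36 percent) and 1004 lower (7.59 percent) in KO lacking mice. The genes nearest to the threshold on the inside were Emc2, Tdg, Igfn1 and Hnrnpc (adjusted p 0.0495 each), and those nearest on the outside were Skap1, Rps21, Prdm8, Ndufc2 and Zfp607a (adjusted p 0.0516 each). The number called was sensitive to single libraries: it was 22 without KO lacking mouse 339, 20 without WT normal mouse 272 and 61 without WT normal mouse 283, and 16 of the 37 passed in all 10 fits that left out 1 library. No statement in the labels says more of the replicates than that they are separate mice. The p-values therefore set each difference against the spread between mice within groups, estimated over all 20 prefrontal libraries. They do not cover a difference between batches, since batch and genotype coincide.

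The called genes were concentrated on chromosome 17, which carries Glo1. It held 19 of the 37, Glo1 included, among 606 tested genes, and the other 18 were among 12617 genes elsewhere or without a position. By distance between the middles of the genes, 2 of 187 tested genes within 5 Mb of Glo1 were called (1.07 percent), 12 of 227 between 5 and 20 Mb (5.29 percent), 4 of 191 beyond 20 Mb (2.09 percent) and 18 of 12551 on other chromosomes (0.143 percent). The 4 beyond 20 Mb, Fndc1, Tagap, Rnaset2b and Rsph3b, lay close together, between -23.68 and -22.67 Mb from Glo1. On the other side of Glo1 the farthest called gene was Pla2g7, at 12.99 Mb. Apart from Glo1, 14 of those on chromosome 17 fell and 4 rose, and their median absolute log2 fold change was 1.23, against 0.66 for the called genes elsewhere. Over all 191 tested genes beyond 20 Mb the median absolute log2 fold change was 0.12, over those between 5 and 20 Mb 0.18, over those within 5 Mb 0.16 and over other chromosomes 0.11. Of the called genes on chromosome 17, Glo1 included, 13 passed in all 10 fits that left out 1 library, and of those elsewhere 3.

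**Figure D1:**
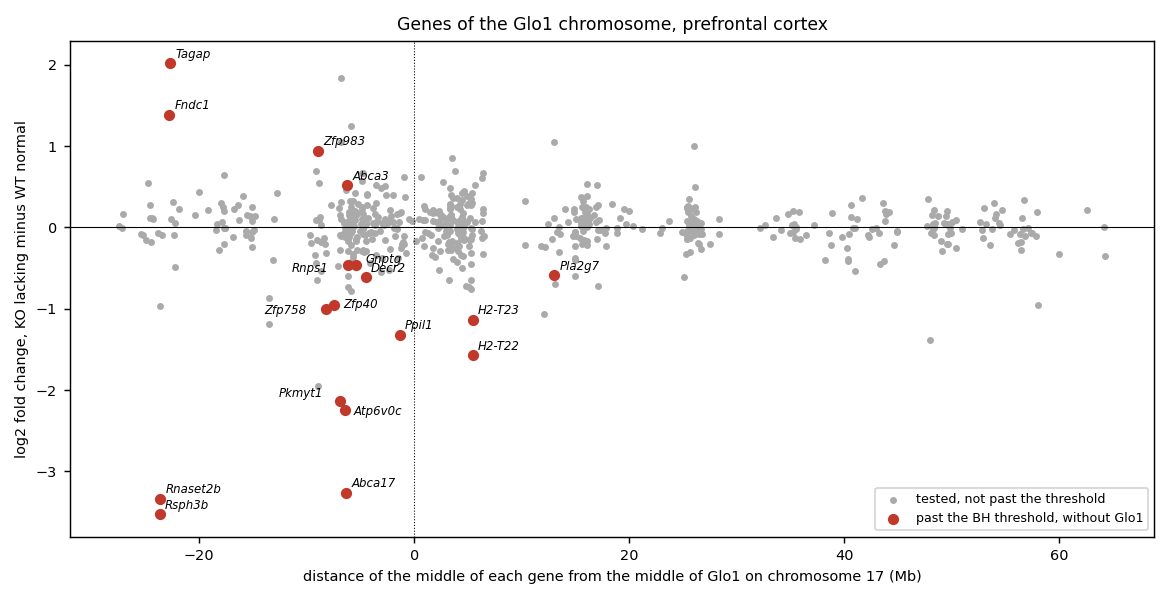
Log2 fold change of KO lacking against WT normal (vertical axis) for each tested gene of chromosome 17, by the distance of its middle from the middle of Glo1 in Mb (horizontal axis). Red points are the 18 called genes other than Glo1, grey points the rest; the red points lie from -23.7 to 13.0 Mb, and the lowest of them is Rsph3b at -3.52.

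Zinc finger genes, whose products bind DNA through repeated zinc-binding motifs, had 3 called members on chromosome 17, with 2 lower and 1 higher. Zfp40 (chr17:23173869-23193284, minus strand) stood at 42.7, 30.4, 32.6, 28.7 and 33.0 CPM in the KO lacking libraries. It was 66.0, 72.5, 64.5, 62.7 and 58.6 CPM in the WT normal libraries. Every KO lacking library was thus below every WT normal library (log2 fold change -0.95, SE 0.11, edgeR adjusted p 1.09e-05). Zfp758 (chr17:22361430-22393909, plus strand) stood at 16.5, 12.3, 10.5, 12.6 and 14.7 CPM in the KO lacking libraries. It was 30.5, 26.1, 25.4, 26.7 and 25.3 CPM in the WT normal libraries. Again the groups did not overlap (log2 fold change -1.0, SE 0.13, edgeR adjusted p 6.71e-05), and the highest WT normal value was that of mouse 272. Zfp983 (chr17:21650572-21664966, plus strand) went the other way, with 16.9, 16.7, 16.8, 17.1 and 17.5 CPM in the KO lacking libraries. It was 7.04, 7.06, 7.52, 8.15 and 14.3 CPM in the WT normal libraries. The 5 KO lacking libraries lay within 1 CPM of each other and above all WT normal libraries, of which mouse 317 was the highest (log2 fold change 0.94, SE 0.17, edgeR adjusted p 0.00725). These 3 genes share 0 to 4.07 percent of their 75-base stretches with other genes. Among the 45 tested zinc finger genes of the chromosome, 4 were higher and 9 lower at an unadjusted p under 0.05. These were 8.89 and 20 percent, beside 5.36 and 7.59 percent of all genes. On chromosome 17 without Glo1, 16 of 187 genes within 5 Mb were higher and 16 lower. Between 5 and 20 Mb 23 of 227 were higher and 34 lower, and beyond 20 Mb 20 of 191 were higher and 16 lower. The median log2 fold change of the zinc finger genes was -0.088 (-0.15 to -0.037 over the fits that left out 1 library), beside 0.0035 over all genes. The next member by p was Zfp760, at 35.8 ± 3.28 against 24.4 ± 5.47 CPM (log2 fold change 0.55, edgeR adjusted p 0.0685).

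H2-T22 and H2-T23, both of the class I major histocompatibility complex (MHC), and B2m fell. H2-T22 encodes a nonclassical class I molecule recognised by gamma delta T cells, H2-T23 encodes Qa-1, which presents signal peptides to CD94/NKG2 receptors, and B2m on chromosome 2 encodes beta-2 microglobulin, the light chain that class I molecules need at the cell surface. The 250 bases before the RefSeq start of each (GRCm38.p6, the build of mm10) are shown because the 3 genes moved in the same direction. Capitals mark the core of the interferon-stimulated response element, searched as GAAA, any 2 bases and GAAA again, and the CCAAT box, both on either strand, and no exon of the annotation lies in these windows.
B2m, chr2:122147437-122147686, plus strand: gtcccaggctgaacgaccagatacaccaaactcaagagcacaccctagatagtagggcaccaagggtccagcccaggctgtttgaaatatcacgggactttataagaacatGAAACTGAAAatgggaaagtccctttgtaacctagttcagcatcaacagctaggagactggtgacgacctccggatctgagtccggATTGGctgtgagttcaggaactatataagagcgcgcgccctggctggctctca
H2-T22, chr17:36042743-36042992, minus strand: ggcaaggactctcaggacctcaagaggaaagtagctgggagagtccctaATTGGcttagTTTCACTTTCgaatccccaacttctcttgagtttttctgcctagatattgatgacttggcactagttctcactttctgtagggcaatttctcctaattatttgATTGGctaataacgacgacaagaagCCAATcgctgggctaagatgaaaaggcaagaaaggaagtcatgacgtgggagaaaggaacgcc
H2-T23, chr17:36032702-36032951, minus strand: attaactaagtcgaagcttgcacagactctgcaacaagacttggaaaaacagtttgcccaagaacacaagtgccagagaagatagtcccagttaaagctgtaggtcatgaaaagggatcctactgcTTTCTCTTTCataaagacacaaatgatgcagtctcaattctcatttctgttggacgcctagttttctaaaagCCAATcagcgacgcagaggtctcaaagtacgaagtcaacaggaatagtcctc

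The core was present 1 time in each of the 3 windows, between 139 and 130 bases before the start of B2m, between 191 and 182 before that of H2-T22 and between 124 and 115 before that of H2-T23. Of 32817 mouse promoter windows of 250 bases, 2.97 percent held it. The CCAAT box occurred 1 time before B2m, 3 times before H2-T22 and 1 time before H2-T23, and 33.8 percent of all windows held it. A form shorter by 1 base, GAA, any 2 bases and GAAA, was in none of the 3 windows and in 6.31 percent of all. These matches describe letters and are not measured binding sites.

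H2-T22 (chr17:36037128-36042742, minus strand) stood at 2.64, 3.25, 2.36, 3.50 and 2.41 CPM in the KO lacking libraries. It was 11.1, 4.55, 8.50, 9.73 and 8.22 CPM in the WT normal libraries. The groups did not overlap, although WT normal mouse 273 was close to the KO lacking range (log2 fold change -1.57, SE 0.23, edgeR adjusted p 0.000623). Its transcripts share 18.5 percent of their 75-base stretches with other genes, foremost H2-T10, so reads of related class I genes may have been counted with it. B2m (chr2:122147687-122153082, plus strand), none of whose 75-base stretches (0 percent) occurs in another gene but which overlaps Patl2 on the opposite strand, stood at 207, 223, 201, 178 and 229 CPM in the KO lacking libraries. It was 346, 308, 244, 319 and 429.9 CPM in the WT normal libraries. No KO lacking library reached the lowest WT normal library (log2 fold change -0.67, SE 0.14, edgeR adjusted p 0.0238), and the call was lost in the fits without mice 242, 272, 317, 325 and 339 (adjusted p up to 0.101). H2-T23 (chr17:36029977-36032701, minus strand) was between 1.16 and 2.19 CPM in the KO lacking libraries and between 2.13 and 4.24 CPM in the WT normal libraries, so that these ranges overlapped (log2 fold change -1.13, SE 0.25, edgeR adjusted p 0.0434). Its call was lost in the fits without mice 242, 244, 272, 283, 286, 317, 325 and 339 (adjusted p up to 0.131). Of the other tested genes with an H2 symbol, the 5 class I heavy chain genes did not pass and differed in sign: the log2 fold change was -0.72 for H2-Q4, -0.23 for H2-K1, 0.021 for H2-D1, 0.43 for H2-T24 and 0.66 for H2-M5 (edgeR adjusted p 0.354 to 0.969). The list of interferon response and antigen loading genes, which holds B2m and the class I heavy chains H2-D1 and H2-K1 but neither H2-T22 nor H2-T23, had 1 called member of 21 tested. At an unadjusted p under 0.05 it had 0 higher and 5 lower members, and its median log2 fold change was -0.23, beside 0.0035 over all genes. This median was sensitive to single libraries: it was -0.038 without WT normal mouse 317 and -0.30 without WT normal mouse 286. Gbp2, an interferon-induced GTPase, was at 3.18 ± 1.17 against 6.13 ± 4.20 CPM (log2 fold change -0.95, edgeR adjusted p 0.17). Oasl2, an oligoadenylate synthetase-like protein, was at 3.22 ± 0.694 against 4.70 ± 1.93 CPM (log2 fold change -0.55, edgeR adjusted p 0.333). Microglia markers had 0 higher and 2 lower members of 13 at an unadjusted p under 0.05 and summed to between 168 and 199 RPKM in the KO lacking libraries and between 184 and 203 RPKM in the WT normal libraries; their median was -0.072 (-0.11 to -0.0024 over the fits that left out 1 library), and 0.0046 with RIN as a covariate. Their part in the result was not tested, and in bulk tissue fewer cells of a type and less RNA per cell cannot be told apart.

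Atp6v0c, Gnptg and Rnaset2b, 3 called genes of chromosome 17, fell. Atp6v0c encodes the membrane ring subunit of the vacuolar proton pump, which acidifies lysosomes and synaptic vesicles. It stood at 0.698, 1.67, 1.45, 2.73 and 2.27 CPM in the KO lacking libraries. It was 9.05, 8.03, 11.1, 10.1 and 3.70 CPM in the WT normal libraries. No KO lacking library exceeded the lowest WT normal one, that of mouse 317, which was far below the other 4 (log2 fold change -2.24, SE 0.34, edgeR adjusted p 0.000702), and 9.24 percent of its 75-base stretches occur in its pseudogenes. The counted level of Atp6v0c was low for a pump subunit, with a WT normal mean of 2.48 RPKM, beside 77.7 RPKM for Atp6v1b2. All pump genes summed to between 1324 and 1468 RPKM in the WT normal libraries. The reason for the low level was not tested. Of the 18 tested pump subunit genes Atp6v0c was the called one, and the list median was 0.014 (-0.014 without mouse 339), with 1 member higher and 2 lower at an unadjusted p under 0.05. Atp6v1f, another subunit, was at 28.5 ± 5.90 against 42.1 ± 7.83 CPM (log2 fold change -0.57, edgeR adjusted p 0.0921). Gnptg, a subunit of the phosphotransferase that tags lysosomal enzymes with mannose 6-phosphate, stood at 21.8, 23.1, 25.2, 24.2 and 21.1 CPM in the KO lacking libraries. It was 34.2, 31.1, 35.1, 30.6 and 27.8 CPM in the WT normal libraries. Its groups were apart (log2 fold change -0.46, SE 0.096, edgeR adjusted p 0.0264), and the call was lost in the fits without mice 242, 272, 273, 283, 339 and 452 (adjusted p up to 0.0939). Rnaset2b, a lysosomal ribonuclease, had 2, 1, 3, 0 and 1 counts in the KO lacking libraries. It had 13, 12, 19, 15 and 6 counts in the WT normal libraries. All KO lacking counts were at or below the floor of 3 counts, so that the fitted change (log2 fold change -3.33, SE 0.58, edgeR adjusted p 0.00479) is imprecise. It also shares 51.4 percent of its 75-base stretches, chiefly with its neighbour Rnaset2a, so reads of the pair may have been split between them.

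Of 4 further called genes of chromosome 17, Pla2g7, Decr2 and Abca17 fell and Abca3 rose. Pla2g7, the secreted phospholipase that inactivates platelet-activating factor and oxidised phospholipids, stood at 85.2, 84.0, 95.1, 80.6 and 89.3 CPM in the KO lacking libraries. It was 122, 115, 148, 121 and 147 CPM in the WT normal libraries. Every KO lacking library was under 100 CPM and every WT normal library above it (log2 fold change -0.59, SE 0.080, edgeR adjusted p 0.000155). Decr2, the peroxisomal 2,4-dienoyl-CoA reductase of unsaturated fatty acid oxidation, stood at 18.7, 18.2, 20.2, 21.3 and 16.9 CPM in the KO lacking libraries. It was 29.4, 33.4, 32.0, 27.5 and 23.8 CPM in the WT normal libraries. Those groups were also apart (log2 fold change -0.62, SE 0.10, edgeR adjusted p 0.00206). Abca3, a phospholipid transporter of lysosome-like organelles, rose, with 60.3, 68.7, 71.3, 78.8 and 62.9 CPM in the KO lacking libraries. It was 44.4, 48.3, 49.8, 45.1 and 50.4 CPM in the WT normal libraries. Its lowest KO lacking library was above the highest WT normal one (log2 fold change 0.52, SE 0.098, edgeR adjusted p 0.01), and the call was lost in the fit without mouse 339 (adjusted p 0.055). Abca17, an adjacent transporter gene of the same family on the opposite strand, fell, with 4, 1, 2, 0 and 1 counts in the KO lacking libraries. It had 12, 17, 25, 7 and 9 counts in the WT normal libraries. Its KO lacking counts were near the floor (log2 fold change -3.26, SE 0.60, edgeR adjusted p 0.00725). Abca3 and Abca17 overlap at their starts, and since strand use in the counting is not stated, reads from that stretch cannot be assigned.

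Ppil1 and Rnps1, on the same chromosome, also fell. Ppil1, a prolyl isomerase of the spliceosome and, apart from Glo1, the called gene nearest to it (chr17:29250835-29263971, minus strand), stood at 2.25, 3.74, 3.17, 2.48 and 3.80 CPM in the KO lacking libraries. It was 8.93, 6.97, 8.69, 7.45 and 6.59 CPM in the WT normal libraries. Its KO lacking levels were all under 4 CPM and its WT normal levels all above 6 CPM (log2 fold change -1.32, SE 0.18, edgeR adjusted p 0.000222). Rnps1, a component of the exon junction complex, stood at 28.5, 28.1, 30.1, 34.1 and 29.97 CPM in the KO lacking libraries. It was 44.7, 49.9, 42.8, 37.5 and 33.2 CPM in the WT normal libraries. Here KO lacking mouse 339 was above WT normal mouse 317, so the groups overlapped (log2 fold change -0.46, SE 0.095, edgeR adjusted p 0.0227), and the call was lost in the fits without mice 242, 272, 273, 325 and 452 (adjusted p up to 0.0875). Other genes of low level were called as well. Pkmyt1, the kinase that holds Cdk1 inactive before mitosis, had 1, 2, 4, 4 and 8 counts in the KO lacking libraries. It had 6, 19, 14, 18 and 16 counts in the WT normal libraries (log2 fold change -2.13, SE 0.43, edgeR adjusted p 0.0205). Its call was lost in the fits without mice 242, 273 and 286 (adjusted p up to 0.0651). Rsph3b, a radial spoke protein of cilia, had 0, 1, 4, 0 and 1 counts in the KO lacking libraries. It had 12, 19, 4, 17 and 13 counts in the WT normal libraries. A count of 4 occurred in both groups, in mice 325 and 283, which did not overlap in CPM (log2 fold change -3.52, SE 0.67, edgeR adjusted p 0.01), and 56.0 percent of its 75-base stretches occur elsewhere, chiefly in Rsph3a. Fndc1, a fibronectin type III domain protein, rose, with 4.81, 2.96, 6.08, 7.17 and 3.58 CPM in the KO lacking libraries. It was 1.90, 1.45, 3.03, 1.19 and 1.81 CPM in the WT normal libraries. KO lacking mouse 244 was below WT normal mouse 283, so there was overlap (log2 fold change 1.39, SE 0.25, edgeR adjusted p 0.00725). Tagap, a GTPase-activating protein of activated T cells, also rose and was between 3.25 and 4.65 CPM in the KO lacking libraries and between 0.29 and 1.81 CPM in the WT normal libraries (log2 fold change 2.02, SE 0.42, edgeR adjusted p 0.0264). Tagap shares 39.0 percent of its 75-base stretches with Tagap1, which was not called and went the other way (log2 fold change -0.97). The call of Tagap was lost in the fits without mice 242, 272, 273, 339 and 452 (adjusted p up to 0.0939).

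**Figure D2:**
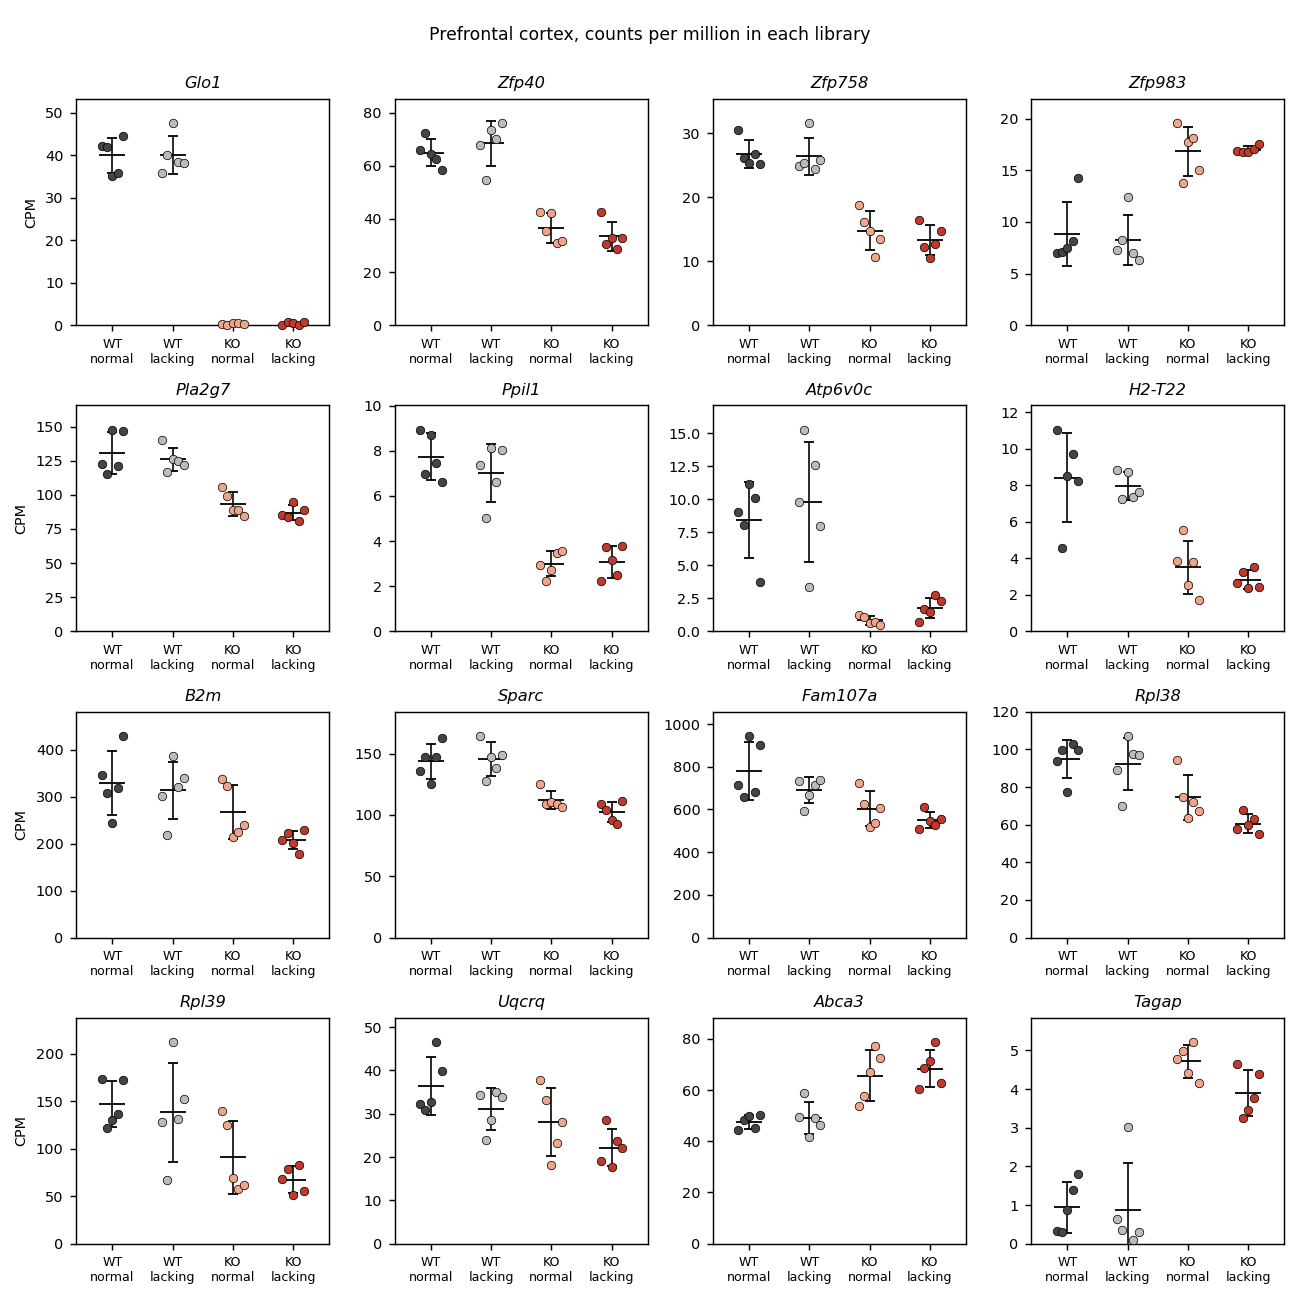
Level of 16 called genes in CPM (vertical axis, from 0) in each of the 20 prefrontal libraries, by genotype and diet. Points are libraries, and horizontal and vertical bars are the group mean and SD (n = 5); Glo1 lies under 1 CPM in every KO library, and Zfp983, Abca3 and Tagap lie higher in KO lacking than in WT normal libraries.

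Outside chromosome 17, 15 of the 18 called genes fell and 3 rose, and the levels of none of the 18 overlapped between the groups. Cytosolic ribosomal protein genes had 3 called members, with Rpl38, Rpl39 and Rpl13 lower. Rpl38 (chr11:114667818-114672333, plus strand), a large-subunit protein, stood at 57.7, 67.6, 59.7, 62.8 and 54.9 CPM in the KO lacking libraries. It was 93.9, 99.7, 77.6, 103 and 99.7 CPM in the WT normal libraries. Every KO lacking library was under 70 CPM and every WT normal library above 75 (log2 fold change -0.65, SE 0.11, edgeR adjusted p 0.00179). Rpl39 (chrX:37082518-37085222, minus strand) stood at 68.0, 78.9, 50.9, 83.0 and 55.0 CPM in the KO lacking libraries. It was 173, 122, 129.9, 136 and 172 CPM in the WT normal libraries. Every KO lacking library was under 85 CPM and every WT normal library above 120 (log2 fold change -1.13, SE 0.23, edgeR adjusted p 0.0207), and the call was lost in the fits without mice 272, 317, 325 and 452 (adjusted p up to 0.0777). Rpl13 was between 20.3 and 32.4 CPM in the KO lacking libraries and between 35.6 and 61.7 CPM in the WT normal libraries (log2 fold change -1.04, SE 0.22, edgeR adjusted p 0.0317), and its call was lost in the fits without mice 242, 272, 286, 317, 325, 339 and 452 (adjusted p up to 0.101). Rpl38 shares 23.1 percent and Rpl13 21.6 percent of their 75-base stretches with pseudogenes or other genes. Of all 75 ribosomal protein genes tested, 3 were called lower and 0 higher, and 6 were higher and 21 lower at an unadjusted p under 0.05 (8.0 and 28.0 percent, beside 5.36 and 7.59 percent of all genes). The list median was -0.013, with 36 members positive. It ran from -0.052 to 0.020 over the fits that left out 1 library, and was 0.011 without TMM scaling and 0.012 with RIN as a covariate. After the length correction described below, 9 were higher and 14 lower. Rps21, the nearest member outside the threshold, was at 90.8 ± 13.0 against 125 ± 11.6 CPM (log2 fold change -0.46, edgeR adjusted p 0.0516).

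Uqcrq and Romo1, which act in mitochondria, also fell. Uqcrq, a subunit of complex III of the respiratory chain, was between 17.6 and 28.5 CPM in the KO lacking libraries and between 31.0 and 46.6 CPM in the WT normal libraries (log2 fold change -0.72, SE 0.16, edgeR adjusted p 0.0434). Romo1, a small inner membrane protein that modulates reactive oxygen species, was between 10.1 and 15.4 CPM in the KO lacking libraries and between 17.8 and 31.7 CPM in the WT normal libraries (log2 fold change -0.94, SE 0.20, edgeR adjusted p 0.0371). The call of Uqcrq was lost in the fits without mice 242, 272, 286, 317, 325, 339 and 452 (adjusted p up to 0.132), and that of Romo1 in the fits without mice 242, 272, 286, 317, 325, 339 and 452 (adjusted p up to 0.13). Among 36 tested subunit genes of complex I, which passes electrons from NADH to ubiquinone, 0 were called, and there were 3 of 36 higher and 8 of 36 lower at an unadjusted p under 0.05, with a median of -0.034 (-0.077 to -0.022). In parentheses after a list's median stands, here and below, its range over the 10 fits that left out 1 library. The members with the smallest p were Ndufc2, at 46.2 ± 6.67 against 67.4 ± 8.63 CPM (log2 fold change -0.55, edgeR adjusted p 0.0516), and Ndufb10, at 44.4 ± 3.34 against 59.4 ± 7.12 CPM (log2 fold change -0.42, edgeR adjusted p 0.0633). Ndufs6 was at 77.7 ± 11.7 against 110.3 ± 4.84 CPM (log2 fold change -0.51, edgeR adjusted p 0.0887) and Ndufa6 at 36.9 ± 5.92 against 47.4 ± 3.01 CPM (log2 fold change -0.36, edgeR adjusted p 0.0836). For complexes II to V, Uqcrq was the called member of 42, and there were 4 of 42 higher and 10 of 42 lower at an unadjusted p under 0.05, with a median of -0.068 (-0.15 to -0.042). Cox6c, of cytochrome c oxidase, was at 179 ± 17.5 against 269 ± 42.1 CPM (log2 fold change -0.59, edgeR adjusted p 0.0634), Atp5g3, of the ATP synthase ring, at 78.3 ± 9.60 against 139 ± 24.8 CPM (log2 fold change -0.83, edgeR adjusted p 0.0684) and Ndufa4 at 94.4 ± 13.1 against 143 ± 21.7 CPM (log2 fold change -0.60, edgeR adjusted p 0.13). The mitochondrial ribosome had 0 of 76 higher and 6 of 76 lower at an unadjusted p under 0.05, with a median of -0.070 (-0.087 to -0.044), and import, fusion, fission and biogenesis genes had 2 of 41 higher and 5 of 41 lower at an unadjusted p under 0.05, with a median of -0.0098 (-0.020 to 0.017) that was 0.013 without TMM scaling. In the latter list Fis1, an outer membrane adaptor of fission, was at 34.2 ± 3.76 against 26.2 ± 1.65 CPM (log2 fold change 0.38, edgeR adjusted p 0.0909), and Tomm7, of the outer membrane translocase, at 22.8 ± 4.84 against 33.7 ± 6.46 CPM (log2 fold change -0.56, edgeR adjusted p 0.102). The summed level of complex I genes was between 929.7 and 1181 RPKM in the KO lacking libraries and between 1078 and 1170 RPKM in the WT normal libraries, so these ranges overlapped. The length correction below left complex I genes with 7 higher and 7 lower.

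The median change differed between classes of gene length, and the ribosomal and respiratory genes above are short. The 175 tested genes of 750 to 1000 bases had a median log2 fold change of -0.11 and the 5455 genes over 5000 bases one of 0.023. At an unadjusted p under 0.05, 19.4 percent of the former were lower and 5.14 percent higher, against 4.45 and 6.67 percent of the latter. Measured in each library as mean log2 CPM of genes under 1000 bases minus that of genes of 5000 bases or more, the values were -2.04 ± 0.122 in KO lacking and -1.91 ± 0.0749 in WT normal mice (SD, n = 5 each, difference -0.13, two-sided exact permutation p 0.0873, adjusted p 0.116). Mouse 244, at -1.82, was the one KO lacking library above the lowest WT normal library (-2.01), and the other 4 lay between -2.12 and -2.08. With a correction for gene length within each library, added after the data were seen, 33 genes were called and 27 of the 37 were among them, 18 on chromosome 17 and 9 elsewhere. The 10 that were lost were B2m (-0.67 to -0.58, 0.0541), Bmyc (-0.79 to -0.71, 0.0595), Romo1 (-0.94 to -0.85, 0.0529), Sepp1 (-0.39 to -0.37, 0.0529), Papss2 (-0.55 to -0.54, 0.0529), H2-T23 (-1.13 to -1.06, 0.0592), Emc2 (-0.36 to -0.29, 0.154), Tdg (0.61 to 0.60, 0.0529), Igfn1 (0.68 to 0.66, 0.0595) and Hnrnpc (-0.32 to -0.30, 0.0711), with the log2 fold change without and with the correction and the edgeR adjusted p of the corrected fit in parentheses. All 10 kept their direction. The median of ribosomal protein genes was then 0.053, that of complex I genes 0.018 and that of complexes II to V -0.021, so that the first 2 changed sign. At an unadjusted p under 0.05 the corrected fit had 9 higher and 14 lower of 75 ribosomal protein genes, 7 higher and 7 lower of 36 complex I genes, 7 higher and 8 lower of 42 genes of complexes II to V and 2 higher and 3 lower of 76 mitochondrial ribosome genes. The 75 ribosomal protein genes have a median length of 1535 bases and those of complex I 1414.5, against 4334 over all genes tested. The part of gene length in these results was not tested further.

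**Figure D3:**
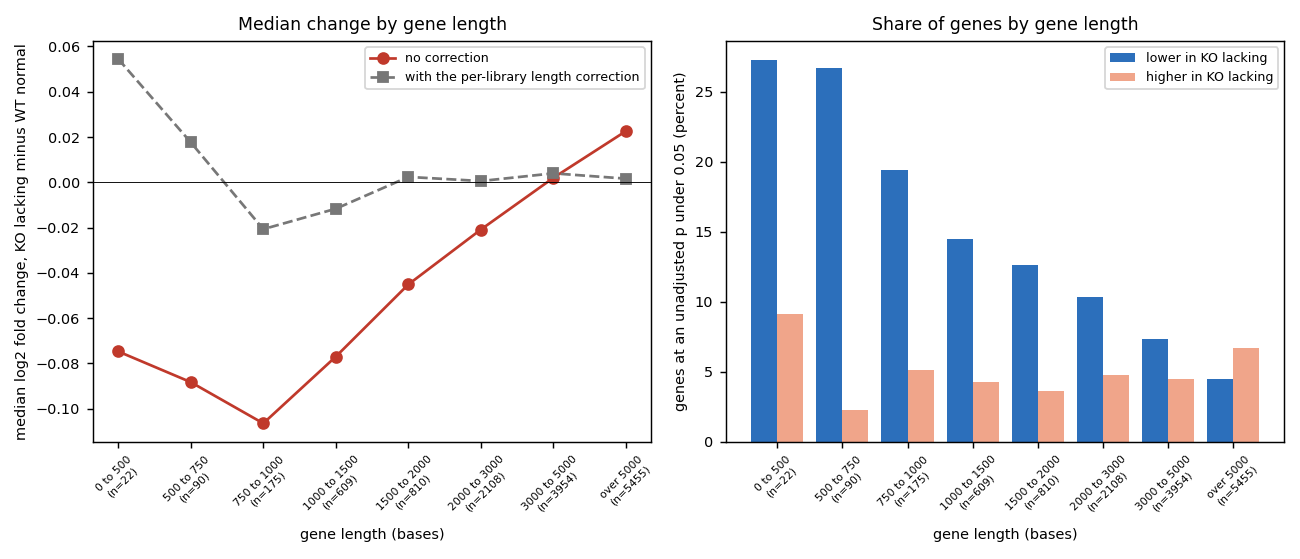
Change of KO lacking against WT normal by gene length in bases (horizontal axis, with the number of genes). On the left, the median log2 fold change without and with the length correction, which runs from -0.11 to 0.023 without it; on the right, the percentage of genes lower or higher at an unadjusted p under 0.05, which for lower genes declines from 27.3 in the shortest class to 4.45 in the longest.

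Sparc, Fam107a, Apbb1ip, Sepp1 and Papss2 were also called, all lower. Sparc (chr11:55394159-55420080, minus strand), a matrix-associated glycoprotein secreted by glia and vessels, stood at 109, 104, 95.6, 92.9 and 111 CPM in the KO lacking libraries. It was 136, 147, 125, 148 and 163 CPM in the WT normal libraries. The highest KO lacking library was below the lowest WT normal library, and the call held in all 10 fits that left out 1 library (log2 fold change -0.49, SE 0.077, edgeR adjusted p 0.00133). Fam107a, an actin-associated protein that responds to stress hormones and is abundant in astrocytes, stood at 509, 609.5, 545, 528 and 553 CPM in the KO lacking libraries. It was 714, 658, 945, 681 and 902 CPM in the WT normal libraries. Its groups were likewise apart (log2 fold change -0.51, SE 0.095, edgeR adjusted p 0.00948). Apbb1ip, the Rap1 effector that activates integrins in blood-derived cells and microglia, stood at 10.5, 9.46, 10.8, 8.28 and 9.94 CPM in the KO lacking libraries. It was 19.0, 17.5, 13.2, 14.2 and 14.2 CPM in the WT normal libraries (log2 fold change -0.67, SE 0.13, edgeR adjusted p 0.0192). Its call was lost in the fits without mice 272, 273 and 339 (adjusted p up to 0.0852). Sepp1, the selenium carrier selenoprotein P, was between 234 and 316 CPM in the KO lacking libraries and between 341 and 418 CPM in the WT normal libraries (log2 fold change -0.39, SE 0.084, edgeR adjusted p 0.0377), and Papss2, which makes the sulfate donor of proteoglycans, was between 17.8 and 21.6 CPM in the KO lacking libraries and between 25.2 and 36.4 CPM in the WT normal libraries (log2 fold change -0.55, SE 0.12, edgeR adjusted p 0.0415). Both lost their call in 7 or 8 of the 10 fits that left out 1 library (adjusted p up to 0.141 and 0.147). Astrocyte markers are given beside these genes: 1 of 11 was higher and 4 were lower at an unadjusted p under 0.05, with a list median of -0.11, and the summed level was between 439.5 and 523 RPKM in the KO lacking libraries and between 504 and 617 RPKM in the WT normal libraries. Slc1a3, the astrocytic glutamate transporter, was at 1128 ± 86.4 against 1463 ± 144 CPM (log2 fold change -0.38, edgeR adjusted p 0.0559), Gfap at 38.5 ± 7.63 against 50.2 ± 7.66 CPM (log2 fold change -0.38, edgeR adjusted p 0.208) and Gja1 at 289.6 ± 34.3 against 344 ± 31.7 CPM (log2 fold change -0.25, edgeR adjusted p 0.231). Pericyte and meninges markers had 0 of 12 higher and 4 lower, with a median of -0.26 that was -0.14 without mouse 339, and summed to between 84.0 and 119 RPKM in the KO lacking libraries and between 106 and 128 RPKM in the WT normal libraries. Igf2, made by meninges and vessels, was at 75.7 ± 30.9 against 127 ± 16.2 CPM (log2 fold change -0.74, edgeR adjusted p 0.153), and Dcn at 9.30 ± 3.0 against 14.4 ± 2.17 CPM (log2 fold change -0.62, edgeR adjusted p 0.231). Other members of that list hardly differed, and of its 12 log2 fold changes 2 were positive and 10 negative. Pdgfrb was at 2.58 RPKM in both groups. Rgs5 was at 54.7 RPKM in KO lacking and 56.1 RPKM in WT normal libraries, and Acta2 at 3.68 and 3.55 RPKM. Endothelial markers had 0 of 10 higher and 2 lower, with a median of -0.069 (0.0055 without mouse 339), and summed to between 39.2 and 54.2 RPKM in the KO lacking libraries and between 41.7 and 53.8 RPKM in the WT normal libraries. The part of cell composition in these results was not tested.

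Of the remaining called genes, Lrrtm1, Bmyc, Emc2 and Hnrnpc fell and Kansl2, Tdg and Igfn1 rose. Lrrtm1, a postsynaptic adhesion protein that binds neurexin, stood at 29.9, 29.3, 26.6, 31.1 and 30.2 CPM in the KO lacking libraries. It was 41.4, 37.5, 38.0, 44.0 and 45.2 CPM in the WT normal libraries. Its groups were apart (log2 fold change -0.49, SE 0.099, edgeR adjusted p 0.0205), it overlaps Ctnna2 on the opposite strand, and the call was lost in the fits without mice 272, 286, 317 and 325 (adjusted p up to 0.0751). Kansl2, of the NSL histone acetyltransferase complex, rose, with 13.8, 11.2, 12.1, 11.4 and 12.7 CPM in the KO lacking libraries. It was 8.15, 6.87, 7.33, 7.75 and 6.77 CPM in the WT normal libraries. It was higher in all KO lacking libraries (log2 fold change 0.73, SE 0.15, edgeR adjusted p 0.0264), shares 31.8 percent of its 75-base stretches with a pseudogene and others, and lost its call in the fits without mice 242, 272, 273, 317, 325 and 452 (adjusted p up to 0.091). Tdg, the glycosylase that removes oxidised methylcytosine from DNA, rose from 8.89 to 13.6 CPM (log2 fold change 0.61, SE 0.14, edgeR adjusted p 0.0495), and 28.6 percent of its stretches are shared with pseudogenes. Igfn1, an immunoglobulin and fibronectin domain protein, rose from 14.6 to 23.3 CPM (log2 fold change 0.68, SE 0.15, edgeR adjusted p 0.0495). Bmyc, a relative of Myc, fell from 22.3 to 12.9 CPM (log2 fold change -0.79, SE 0.17, edgeR adjusted p 0.0317). Emc2, of the complex that inserts membrane proteins in the endoplasmic reticulum, fell from 131 to 102 CPM (log2 fold change -0.36, SE 0.082, edgeR adjusted p 0.0495), and Hnrnpc, which binds nascent pre-mRNA, from 295 to 237 CPM (log2 fold change -0.32, SE 0.072, edgeR adjusted p 0.0495). Strand use also bears on Pkmyt1 (Paqr4), Gnptg (Unkl and Tsr3), Romo1 (Nfs1), Sepp1 (Ccdc152), Tdg (Glt8d2) and Igfn1 (Tmem9), each of which overlaps the gene in parentheses on the opposite strand. Of the last genes above, Tdg, Igfn1, Bmyc, Emc2 and Hnrnpc each lost its call in 7 to 10 of the 10 fits that left out 1 library, with adjusted p up to 0.151.

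The levels in the other 2 prefrontal groups are given side by side with those above, because comparisons with these groups share libraries with the main comparison. Mean levels of Zfp40 in WT normal, WT lacking, KO normal and KO lacking mice were 64.8, 68.4, 36.6 and 33.5 CPM, those of H2-T22 8.41, 7.96, 3.50 and 2.83 CPM, and those of Pla2g7 131, 126, 93.5 and 86.8 CPM. In these 3 examples from chromosome 17 both KO groups lay near each other and both WT groups near each other. Not every called gene of that chromosome was like them, and some called genes elsewhere were. Rpl38 had means of 94.7, 92.3, 74.5 and 60.5 CPM in the same order, Rpl39 147, 138, 90.8 and 67.2 CPM and B2m 329, 313, 268 and 208 CPM. Romo1 had means of 23.3, 21.2, 19.1 and 12.2 CPM, Tdg 8.89, 9.63, 10.5 and 13.6 CPM and Kansl2 7.37, 8.43, 9.61 and 12.2 CPM. H2-T23, on chromosome 17, was between 1.74 and 3.04 CPM in KO normal libraries and between 1.16 and 2.19 CPM in KO lacking libraries. Sparc, on chromosome 11, was between 125 and 163 CPM in WT normal and between 128 and 165 CPM in WT lacking libraries. In KO normal libraries Sparc was between 107 and 125 CPM, and in KO lacking libraries between 92.9 and 111 CPM. The KO normal libraries of mice 267, 268, 368, 381 and 390, in this order, were not alike. Rpl39 was at 140.0, 125, 69.0, 57.9 and 62.0 CPM in them, B2m at 337, 322, 214, 225 and 241 CPM and Romo1 at 24.8, 27.7, 14.03, 13.1 and 15.9 CPM. For these 3 genes mice 267 and 268 lay within the range of the WT normal libraries, and mice 368, 381 and 390 below every WT normal library. The same split held for Rpl13, Bmyc, Uqcrq, Sepp1, Emc2 and Hnrnpc. Tdg was split the other way, at 8.26 and 8.90 CPM in mice 267 and 268 and 11.4 to 11.9 CPM in the others. For all these genes the KO normal mean therefore joins unlike libraries and is not a level that each mouse had. Apbb1ip, by contrast, was below every WT normal library in all KO normal libraries. The difference between short and long genes described above was -1.87, -1.83, -2.09, -1.88 and -1.91 in the same order. Each diet difference below shares 1 group of libraries with the main comparison. Within batch 1, the diet difference in KO mice ran over the 37 genes from -1.39 to 1.06 on the log2 scale, and its smallest edgeR adjusted p was 0.911. Within batch 2, the diet difference in WT mice ran from -0.41 to 0.56, with a smallest adjusted p of 1.0.

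The same contrast in the striatum and hippocampus of the same mice gave values from libraries that the prefrontal fit did not use. In the striatum 11 of 13311 genes were called (0.0826 percent) and in the hippocampus 2 of 13393 (0.0149 percent). Of the 37 prefrontal genes 7 were among the striatal calls (Glo1, Pla2g7, Ppil1, Atp6v0c, Decr2, Zfp983 and Gnptg), all on chromosome 17, and 2 among the hippocampal calls, Glo1 and Atp6v0c. The log2 fold change of Zfp758 was -1.0 (prefrontal), -0.76 (striatal) and -0.75 (hippocampal), that of Decr2 -0.62 (prefrontal), -0.72 (striatal) and -0.54 (hippocampal), and that of Tagap 2.02 (prefrontal), 1.71 (striatal) and 1.74 (hippocampal). Among genes elsewhere, Rpl38 was -0.65 (prefrontal), -0.28 (striatal) and 0.031 (hippocampal), Sparc -0.49 (prefrontal), -0.19 (striatal) and -0.14 (hippocampal), and Uqcrq -0.72 (prefrontal), -0.42 (striatal) and 0.11 (hippocampal). A test of the difference itself, in a fit of all 60 libraries, called 0 of 13930 genes between prefrontal cortex and striatum (0 percent) and 0 between prefrontal cortex and hippocampus (0 percent). At an unadjusted p under 0.05 there were 455 and 1019 such genes, and among the 37 the smallest edgeR adjusted p was 0.957 for the striatum and, for Fndc1, 0.354 for the hippocampus. The changes are therefore not shown to be particular to the prefrontal cortex. Pkmyt1 and Abca17 were not tested in the hippocampus and Abca17 not in the striatum, for low counts.

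**Figure D4:**
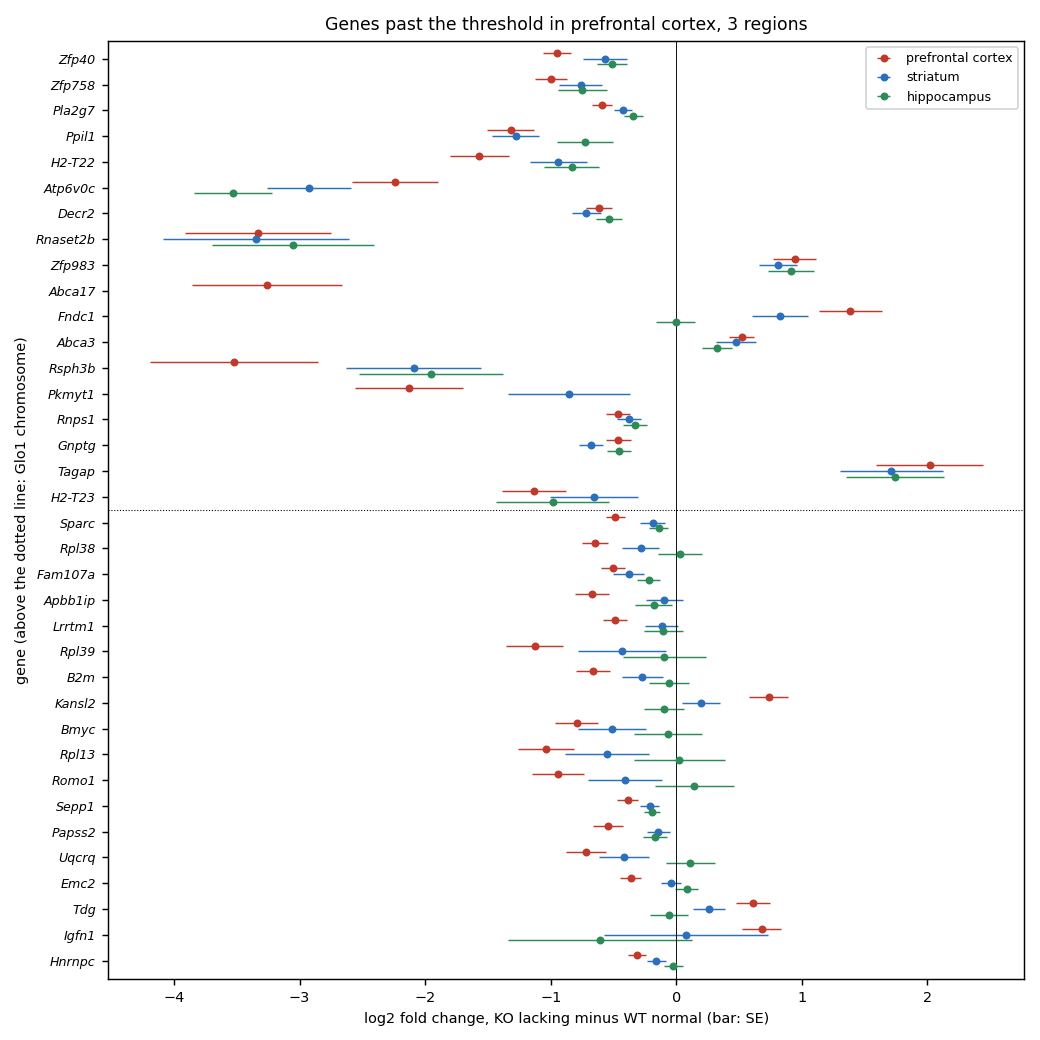
Log2 fold change of KO lacking against WT normal (horizontal axis, bars are SE, 5 mice per group) in 3 brain regions for the 36 called genes other than Glo1. Genes above the dotted line lie on chromosome 17; Zfp983 and Tagap lie above 0 and Atp6v0c and Decr2 below 0 in all 3 regions, and missing points were not tested.

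The pathways named by the design were examined as lists, against a background of 5.36 percent of genes higher and 7.59 percent lower at an unadjusted p under 0.05 and a median of 0.0035. Methylglyoxal and dicarbonyl detoxification genes other than Glo1 had 0 called members of 22, with 2 of 22 higher and 1 of 22 lower at an unadjusted p under 0.05, with a median of 0.041 (0.0071 to 0.061). Aldh3a2, a fatty aldehyde dehydrogenase, was at 44.5 ± 1.34 against 37.3 ± 1.88 CPM (log2 fold change 0.25, edgeR adjusted p 0.205), with every KO lacking library above every WT normal library. Cbr3, a carbonyl reductase, was at 3.08 ± 0.538 against 4.39 ± 0.99 CPM (log2 fold change -0.50, edgeR adjusted p 0.305) and Aldh1b1, a mitochondrial aldehyde dehydrogenase, at 3.73 ± 0.863 against 2.62 ± 0.855 CPM (log2 fold change 0.50, edgeR adjusted p 0.36). VB6 uptake, salvage and phosphatase genes had 0 called of 8, with 1 of 8 higher and 0 of 8 lower at an unadjusted p under 0.05, with a median of 0.090 (0.042 to 0.10). Of 40 tested enzymes that use VB6, 0 were called, with 3 of 40 higher and 3 of 40 lower at an unadjusted p under 0.05, with a median of -0.025 (-0.036 to 0.0081). Etnppl, the astrocytic phospholyase of phosphoethanolamine, was at 26.0 ± 5.28 against 43.7 ± 15.9 CPM (log2 fold change -0.75, edgeR adjusted p 0.0701), and Cth, which makes cysteine from cystathionine, at 0.826 ± 0.269 against 1.61 ± 0.598 CPM (log2 fold change -0.94, edgeR adjusted p 0.268).

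Antioxidant and glutathione genes had 0 called members of 45, with 1 of 45 higher and 8 of 45 lower at an unadjusted p under 0.05, with a median of -0.089 (-0.11 to -0.039). Cat (catalase) was at 82.7 ± 4.14 against 113 ± 11.1 CPM (log2 fold change -0.45, edgeR adjusted p 0.0516), without overlap between the groups. Mt2, a metallothionein, was at 12.8 ± 5.15 against 23.5 ± 4.0 CPM (log2 fold change -0.89, edgeR adjusted p 0.0633), with overlap. Gpx4, the peroxidase of membrane lipid peroxides, was on the other side, at 39.3 ± 2.86 against 30.7 ± 3.07 CPM (log2 fold change 0.36, edgeR adjusted p 0.0887), also with no overlap between the groups. Levels did not overlap in 2.87 percent of all tested genes. Glycolysis and TCA cycle genes had 0 called of 38, with 3 of 38 higher and 1 of 38 lower at an unadjusted p under 0.05, with a median of 0.051 (0.031 to 0.070). Eno1 was at 81.3 ± 5.96 against 62.3 ± 3.63 CPM (log2 fold change 0.39, edgeR adjusted p 0.168) and Pkm at 452 ± 25.3 against 388 ± 29.3 CPM (log2 fold change 0.22, edgeR adjusted p 0.313), and in both every KO lacking library lay above every WT normal one. Endoplasmic reticulum and integrated stress response genes had 0 called of 33, with 1 of 33 higher and 4 of 33 lower at an unadjusted p under 0.05, with a median of -0.083 (-0.094 to -0.035). Calr, a calcium-binding chaperone, was at 404 ± 18.1 against 484 ± 31.8 CPM (log2 fold change -0.26, edgeR adjusted p 0.0628), without overlap between the groups. Dnajb9, a co-chaperone, was at 82.4 ± 5.66 against 107 ± 12.9 CPM (log2 fold change -0.38, edgeR adjusted p 0.122), with overlap. The glucocorticoid response list had 0 called of 17, with 0 of 17 higher and 5 of 17 lower at an unadjusted p under 0.05, with a median of -0.084 (-0.17 to -0.0078), and Tsc22d3, a glucocorticoid-induced gene, was at 33.8 ± 5.65 against 42.2 ± 5.32 CPM (log2 fold change -0.32, edgeR adjusted p 0.237).

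The neuronal lists had 0 called members in the main fit. Glutamate receptors and transporters had 0 called of 35, with 1 of 35 higher and 2 of 35 lower at an unadjusted p under 0.05, with a median of -0.027 (-0.036 to -0.0067). GABA genes had 0 called of 23, with 1 of 23 higher and 2 of 23 lower at an unadjusted p under 0.05, with a median of -0.090 (-0.10 to -0.030), and the synaptic vesicle list had 0 called of 39, with 3 of 39 higher and 5 of 39 lower at an unadjusted p under 0.05, with a median of 0.010 (-0.022 to 0.037). Syn1, which tethers synaptic vesicles, was at 1158 ± 76.1 against 1439 ± 117 CPM (log2 fold change -0.31, edgeR adjusted p 0.0634), without overlap between the groups. Monoamine receptors and enzymes had 0 called of 23, with 2 of 23 higher and 1 of 23 lower at an unadjusted p under 0.05, with a median of 0.038 (0.016 to 0.097). Drd2, the D2 dopamine receptor, was at 1.43 ± 0.686 against 0.473 ± 0.115 CPM (log2 fold change 1.55, edgeR adjusted p 0.0861), with the KO lacking libraries between 0.698 and 2.48 CPM and the WT normal libraries between 0.387 and 0.632 CPM. Drd2 is also a striatal marker, and beside it the 10 tested striatal markers had 1 higher and 2 lower at an unadjusted p under 0.05 and summed to between 66.4 and 84.2 RPKM in the KO lacking libraries and between 68.7 and 77.6 RPKM in the WT normal libraries. Adora2a, another of them, was at 0.335 RPKM in KO lacking and 0.263 RPKM in WT normal libraries, and the part of striatal tissue in the Drd2 values was not tested. The 10 excitatory neuron markers had 0 higher and 2 lower at an unadjusted p under 0.05 and summed to between 1390 and 1670 RPKM in the KO lacking libraries and between 1681 and 1782 RPKM in the WT normal libraries, without overlap, and their median log2 fold change was -0.10. Nrgn held most of the gap in that sum, at 714 ± 56.2 RPKM in KO lacking and 883 ± 66.6 RPKM in WT normal libraries. Slc17a7 was at 128 ± 20.1 RPKM in KO lacking and 106 ± 15.1 RPKM in WT normal libraries and Tbr1 at 51.7 ± 3.39 RPKM in KO lacking and 50.9 ± 4.85 RPKM in WT normal libraries. The part of these markers in the neuronal lists was not tested. Inhibitory neuron markers had 0 higher and 1 lower of 13, and summed to between 560.3 and 769.7 RPKM in the KO lacking libraries and between 630.1 and 817 RPKM in the WT normal libraries.

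**Figure D5:**
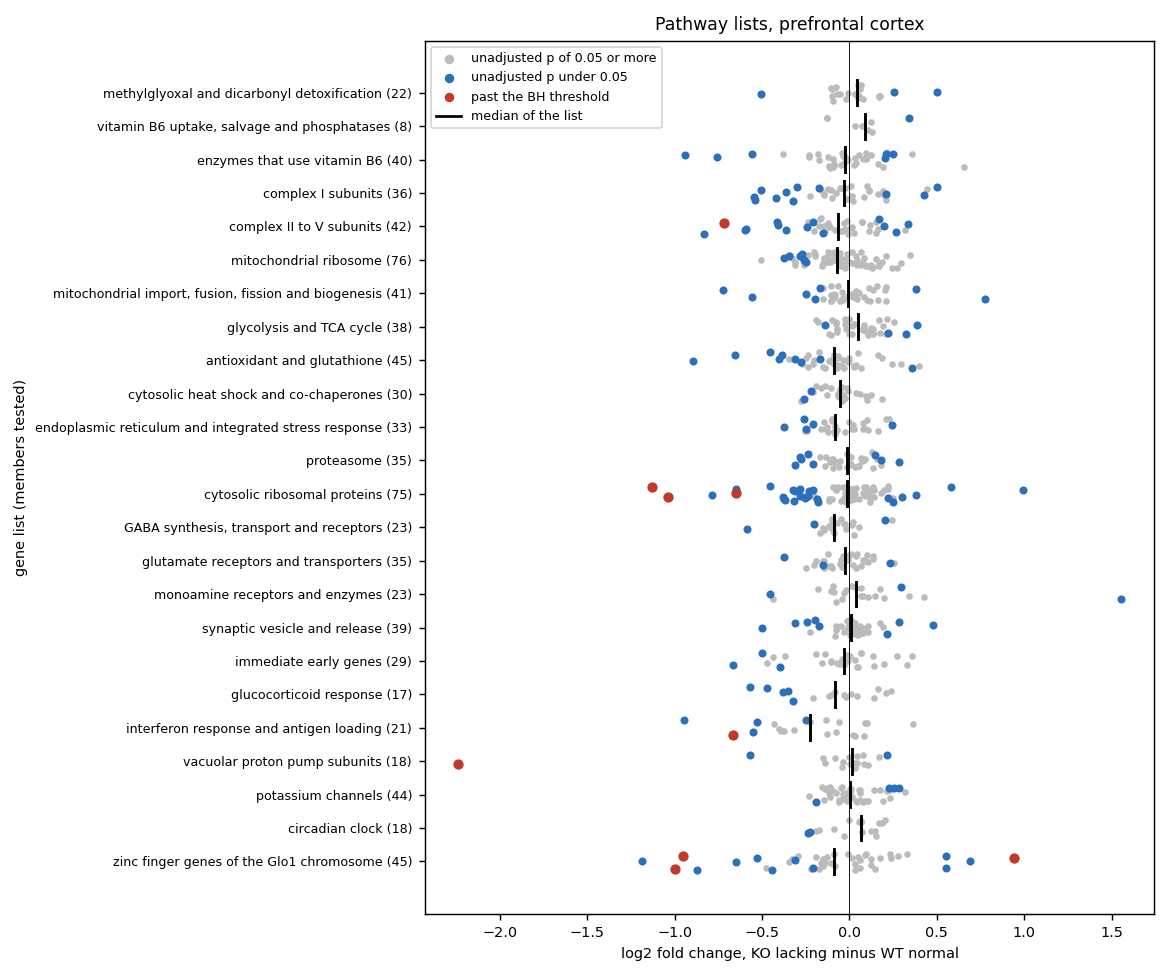
Log2 fold change of KO lacking against WT normal (horizontal axis) of each tested member of 24 lists (vertical axis, number tested in parentheses). Grey, blue and red points are members at an unadjusted p of 0.05 or more, under 0.05, and past the BH threshold, and black bars are list medians, of which that of interferon response and antigen loading is -0.23 (-0.038 without WT normal mouse 317); vertical scatter within a row has no meaning.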

How the data were processed

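Messenger RNA of the prefrontal cortex, selected on poly(A) beads from 2 µg of total RNA, was read as single 75-base reads, per the labels' protocols. The authors deposited raw counts per gene, whole numbers for 21999 genes in 60 libraries, and RPKM values, which equal the deposited counts divided by gene length and library total (within 0.001 of the value, for the 18514 genes with a count). STAR 2.7.1a, HTSeq 0.9.1 and mm10 are named in the submitters' processing notes; their settings and the strand used are not given in the sources used here. Counts were fitted with edgeR 4.0.16 in R 4.3.3 (TMM factors, filterByExpr with a minimum of 10 and a total of 15, quasi-likelihood F-test, two-sided) over all 20 prefrontal libraries with a mean per group, and p was BH-adjusted over 13223 genes. CPM are on TMM-scaled totals, and SE derive from the F statistic. VB6 and RIN were compared by exact permutation tests. Genes were placed by the RefSeq annotation of GRCm38.p6 and overlaps taken from GENCODE (genes placed: 20491 by symbol, 837 by synonym, 671 unplaced), and 75-base stretches shared between genes were counted in the GENCODE transcripts. The steps were tested on simulated data, and 0 value columns were left unmatched.

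All 37 called genes are named. Values in every library are given for Glo1 and the 24 next by p, and up to 4 members of each list with the smallest p were eligible to be named. Some list members are not reported here. The members and lists were chosen with earlier results of these data known. Alternatives were DESeq2 1.42.0, limma 3.58.1 on log2(RPKM + 1), no TMM, other count filters, RIN as a covariate, the 2 groups alone, a minimum of 0.3 in absolute log2 fold change, and leaving out each library; a gene length correction and a fit without mice 339 and 241 were added after the data were seen. Mouse numbers pair regions, since the same animals gave all 3: the mean correlation of deviations was 0.0468 over 60 same-mouse pairs and -0.011 over 240 others. Replicate pairs (40) had a chi-square per gene of 1.94 to 20.1, so no library was a copy.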

Additional observations from a re-analysis of the deposited data

Results flagged for a closer look

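Among 60 groups of 5 values examined (the 25 first called genes, library totals, RIN, VB6 level, gene length balance and distance from the group), 5 had a sample whose gap to the nearest other, divided by the range of the group, was above 0.71. Chance gives about 1 in 20, or 3 of 60.

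In the WT normal group, Zfp758 was 30.5 CPM in mouse 272 and 25.3 to 26.7 CPM in the other 4 (ratio 0.724). Zfp983 was 14.3 CPM in WT normal mouse 317 and 7.04 to 8.15 CPM in the others (ratio 0.846), so that mouse 317 lay nearest to the KO lacking level of 16.7 to 17.5 CPM. Rsph3b was 0.363 CPM in KO lacking mouse 325 and 0 to 0.0985 CPM in the others (ratio 0.728), a difference of a few counts.

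For whole libraries, the mean log2 CPM of short minus long genes was -1.82 in KO lacking mouse 244 and -2.12 to -2.08 in the other 4 (ratio 0.858). Mouse 244 also had the lowest RIN of its group, 7.8. KO lacking mouse 339 had 77 genes over 1 log2 unit from its group, against 4 to 20 (ratio 0.781). Without mouse 339, 21 of the 37 genes passed, 15 on chromosome 17 and 6 elsewhere.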

How the results depend on the processing

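The 37 called genes numbered 130 with DESeq2 (all 37 among them), 21 with limma on log2(RPKM + 1) (18 of the 37), 81 without a filter on low counts, 95 with RIN as a covariate (all 37) and 111 in a fit of only the 2 groups (32 of the 37). Counts of called list members refer to the main fit. Of 131 other named genes, outside its threshold, 18 passed with DESeq2, 20 in the fit of only the 2 groups, 13 without a filter on low counts and 10 with RIN. Leaving out 1 library gave 20 called genes (without WT normal mouse 272) to 61 (without WT normal mouse 283). Without TMM there were 42, and without mice 339 and 241 there were 37, of which 30 were the same genes; each of the 37 kept its direction in every fit that gave it a value. For the regions, the fits without a block called 0 genes, and with the mouse as a replicate block they also called 0 (unadjusted p under 0.05 in edgeR: 474 genes for the striatum, 1089 for the hippocampus). Within the prefrontal cortex no paired analysis was possible because the compared groups share no mouse. The VB6 difference kept its direction in every alternative. The RIN difference was 0.465 without KO lacking mouse 244 (exact permutation p 0.0476), and leaving out 1 library gave 0.14 to 0.465.

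Genes outside the threshold that changed sign were cell type markers, some of low level, such as Lct (0.178 RPKM in WT normal, 0.214 RPKM in KO lacking libraries). On the log2 scale, leaving out 1 library gave -0.31 to 0.093 for Alas2, -0.094 to 0.015 for Enkur, -0.21 to 0.072 for Hbb-bs, -0.092 to 0.19 for Kl, -0.17 to 0.44 for Lct and -0.38 to 0.025 for Spink8. Alas2 was 0.045 with RIN as a covariate and 0.082 without mice 339 and 241, and Hbb-bs was 0.076 without these mice. With the length correction Enkur was 0.026 and Hbb-bs 0.0011. The cause was not tested. Depth limits Rnaset2b, Abca17, Rsph3b and Pkmyt1, whose KO lacking counts lie near the floor of 3.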

Other observations

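Lists of other functions held no called gene. Among 44 potassium channel genes, 3 were higher and 1 lower at an unadjusted p under 0.05, with a median log2 fold change of 0.0022. Kcnj10, the astrocytic inward rectifier, was at 275 ± 13.4 against 313 ± 12.3 CPM (log2 fold change -0.19, edgeR adjusted p 0.205), with no overlap between the groups, and Kcnj9, a neuronal inward rectifier, at 99.6 ± 7.62 against 83.5 ± 6.95 CPM (log2 fold change 0.25, edgeR adjusted p 0.205). Among 18 circadian clock genes, 0 were higher and 2 lower, with a median of 0.064. Hlf, an output transcription factor of the clock, was at 370.3 ± 9.64 against 437 ± 40.9 CPM (log2 fold change -0.24, edgeR adjusted p 0.134). Immediate early genes, which follow recent neuronal activity, had 0 of 29 higher and 3 lower, with a median of -0.029 that ran from -0.13 to 0.056 over the fits that left out 1 library. Jund was at 34.8 ± 6.77 against 45.7 ± 4.99 CPM (log2 fold change -0.40, edgeR adjusted p 0.237) and Npas4 at 23.5 ± 4.20 against 18.7 ± 2.24 CPM (log2 fold change 0.33, edgeR adjusted p 0.417).

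Among 35 proteasome genes, 3 were higher and 5 lower, with a median of -0.012 (0.0095 without TMM scaling). Psma5 was at 27.9 ± 2.29 against 34.6 ± 2.82 CPM (log2 fold change -0.31, edgeR adjusted p 0.111) and Psmc5, an ATPase of the cap, at 93.2 ± 6.76 against 76.5 ± 8.35 CPM (log2 fold change 0.29, edgeR adjusted p 0.13). Among 30 cytosolic heat shock genes, 0 were higher and 2 lower, with a median of -0.053, and Stip1, a co-chaperone of Hsp70 and Hsp90, was at 169 ± 16.1 against 202 ± 19.9 CPM (log2 fold change -0.26, edgeR adjusted p 0.178). Oligodendrocyte and myelin markers had 0 of 14 higher and 0 lower and summed to between 368 and 646 RPKM in the KO lacking libraries and between 465 and 599 RPKM in the WT normal libraries.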
